A study of Capsicum annuum with 6 samples.

Results

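The 200 genes described here were those whose transcript level differed most among biological replicates of the compact pepper accession B010 and, at the same time, among those of the loose accession B003. They were chosen from the measured values. Among genes carrying an identifier of the cv.59 genome and a mean of 1 to 100 FPKM over the 6 libraries (FPKM are sequenced fragments scaled to exon length and to how many reads a library mapped), the standard deviation (SD) of log2(FPKM + 1) was taken within B010 and within B003. Genes were then ranked by the smaller of both SDs, and the 200 highest were kept. The table listed 24829 genes, of which 21562 carried such an identifier and 19591 of these had a mean level in that range. From these, 35 genes of the published heat maps and 185 genes of a chromosome 4 and a chromosome 7 interval were left out, so that the 200 members came from 19371 genes (1.03%). Of the genes left out, 3 had SDs as large as the lowest member, and 0 of these were heat-map genes.

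B010 has a compact architecture with a small first branch angle, and B003 has a loose one with a large angle. The labels name no treatment for either accession, and the tissue of each library was taken at the first branch when the plants began to flower. Each accession had 3 biological replicates, each a pool of plants, and polyadenylated RNA was sequenced. The study set B010 against B003 to look for genes that differ along with the branch angle. The replicates are described here for what varied inside each accession.

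In pepper the main stem ends in a flower and growth goes on from the buds just beneath it, which forms a fork. The fork therefore holds stem cortex and vasculature, young axillary shoots and tissue near a flower bud side by side, and these differ in the genes they use. In bulk RNA of this kind, fewer cells of a type and less RNA per cell cannot be told apart. The identifiers are not paired with gene names in the sources used here, and 0 of them matched the pepper RefSeq gene table, so the genes are given by identifier and no function or tissue marker is assigned to any of them. The labelled tissue was therefore not checked against marker genes.

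The 3 B010 libraries had total counts of 47659515, 29891192 and 30287766, and the 3 B003 libraries had 36975048, 32537786 and 31995236. A count of 0 allows up to 3 counts, which is 0.0629 to 0.1 CPM (counts scaled to a library total of 1000000) and covers counting error only. In both accessions 1 library stood apart over all genes. The chi-square per degree of freedom of the counts was 44.6 between B010 replicates 1 and 2, against 138 and 216 when each was compared with replicate 3. It was 28.9 between B003 replicates 2 and 3, against 210 and 240 when each was compared with replicate 1. No pair of libraries agreed within sampling noise, so all 6 were kept as separate samples.

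The members varied several times more than other genes in both accessions, as the rule required. Their SD of log2(FPKM + 1) ran from 0.852 through a median of 1.19 to 3.11 in B010, and from 0.852 through a median of 1.16 to 3.26 in B003. The other 19171 genes had median SDs of 0.227 in B010 and 0.214 in B003. Of the members, 105 had their larger SD in B010 and 95 in B003. A large spread in only one of the accessions was more common: 833 other genes reached the lowest member's SD in B010 alone, and 914 did so in B003 alone. The median distance between the highest and the lowest replicate of a member was 2.29 in B010 and 2.21 in B003 on the log2(FPKM + 1) scale.

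**Figure D1:**
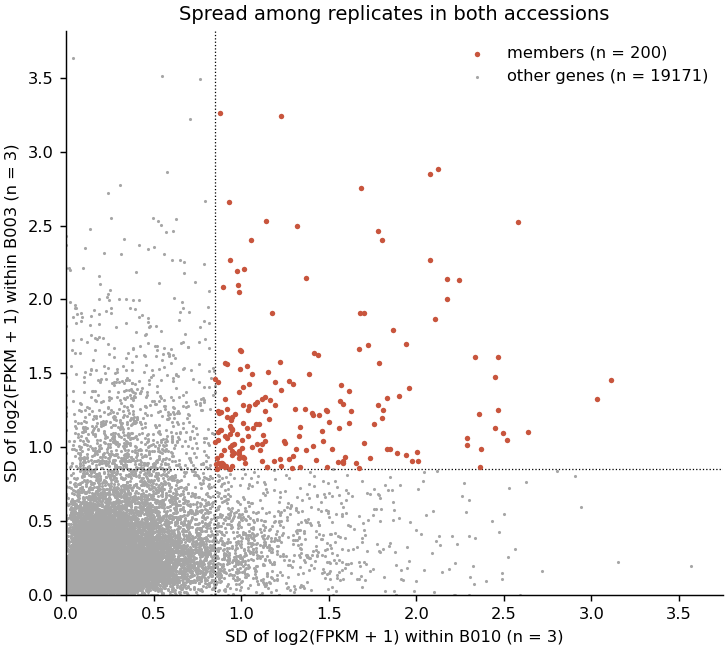
SD of log2(FPKM + 1) among the 3 B010 replicates (horizontal axis) against that among the 3 B003 replicates (vertical axis), with the 200 members and the other 19171 genes as points. The members fill the corner above 0.852 on both axes, which the rule fixes, while genes variable in only one accession lie along the axes.

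Counting error was a small part of this spread. The SD expected from counting alone had a median of 0.0633 in B010 and 0.0688 in B003 for the members, which was a median of 0.0477 and 0.054 of the spread observed in B010 and in B003. For the other genes these shares were 0.247 and 0.27. At least 10 counts were present in every library for 163 members and at least 100 for 84, whereas 16 members had 3 or fewer counts in some library. The members' mean level was somewhat high for the range allowed, with a median of 20.8 FPKM against 10.8 FPKM for the other genes.

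The rank of the last members was set by small differences. Capann_59Chr04g006490, the last member but one, had 8.87, 3.71 and 14.3 FPKM in B010 replicates 1, 2 and 3 and 2.06, 8.96 and 4.89 FPKM in B003. Capann_59Chr01g001350, the last member, had 12.4, 6.04 and 21.9 FPKM in B010, against 75.5, 14.4 and 10.8 FPKM in B003. Both had a smaller SD of 0.852. Just outside, Capann_59Chr08g007380 had 1.2, 17.2 and 5.25 FPKM in B010, against 8.37, 2.04 and 2.92 FPKM in B003, with a smaller SD of 0.852. Capann_59Chr05g020130, the next in rank, had 10.1, 14.8 and 3.09 FPKM in B010, against 20.3, 7.23 and 6.21 FPKM in B003, with a smaller SD of 0.851. The genes on either side of the limit could not be told from one another by their values.

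The 4 members at the top of the ranking already showed that different libraries carried the spread. Capann_59Chr04g019840 had 0, 0 and 21.2 FPKM in B010 replicates 1, 2 and 3 and 22.9, 16.5 and 0 FPKM in B003 replicates 1, 2 and 3. Its counts were 0, 0 and 260 in B010 and 342, 216 and 0 in B003, so the transcript was present in 1 library of B010 and 2 libraries of B003 and was not detected in the other 3. Its smaller SD was 2.52, the highest of all members. A limit of 3 counts in the libraries at 0 is far below the counts of the libraries where it was read.

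Capann_59Chr11g005510 had 57.3, 126 and 5.90 FPKM in B010, against 2.61, 41.7 and 50.3 FPKM in B003. Capann_59Chr05g008120 followed the same order, with 47.8, 115 and 5.57 FPKM in B010, against 0.584, 49.0 and 49.6 FPKM in B003. In both genes B010 replicate 3 and B003 replicate 1 were the low libraries. Capann_59Chr02g028530 had 86.3, 144 and 6.90 FPKM in B010, where replicate 3 was again low. In B003 it had 255, 18.2 and 19.2 FPKM, so that replicate 1 was the high library instead.

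To state which replicates differed together, the 3 values of each gene in an accession were sorted. A replicate was taken to stand apart, high or low, where the larger of both gaps on the log2(FPKM + 1) scale was at least 2 times the smaller one, and otherwise the 3 values were called graded. The rule that chose the members used the size of the spread and not which replicate carried it. The counts below are descriptions with no test, because the genes of a library are not replicates.

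In B010 the members were dominated by 1 library. Replicate 3 stood apart as low in 98 members (49.0%), and 67 (33.5%) were graded. Replicate 3 stood apart as high in 19 (9.5%), replicate 2 as low in 5 and as high in 4, and replicate 1 as high in 4 and as low in 3. Among the other genes replicate 3 was low in 11% and high in 22.1%. These shares of the other genes moved with the scaling, to 16.8% low and 14.4% high on the CPM scale with TMM factors, whereas 95 of the 200 members had a low replicate 3 on that scale.

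The order of the B010 replicates was shared by more members than any pattern of gaps. Replicate 2 was the highest and replicate 3 the lowest, with replicate 1 between them, in 132 members (66.0%), against 14.2% of the other genes (28.7% on the CPM scale with TMM factors). The opposite order, with replicate 3 highest and replicate 2 lowest, was found in 44 members (22.0%). Among the other genes it was the commonest order on the FPKM scale, at 53.4%, and it made up 29.3% on the CPM scale with TMM factors. Replicate 1 was at an end in few members, the highest in 14 (7.0%, against 16.5% of the other genes) and the lowest in 7 (3.5%, against 15.6%). Replicates 2 and 3 lay at opposite ends in both of these orders. Replicate 1 was the most deeply sequenced B010 library, and replicates 2 and 3 had almost the same total counts. Whether depth played a part in the order was not tested.

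**Figure D2:**
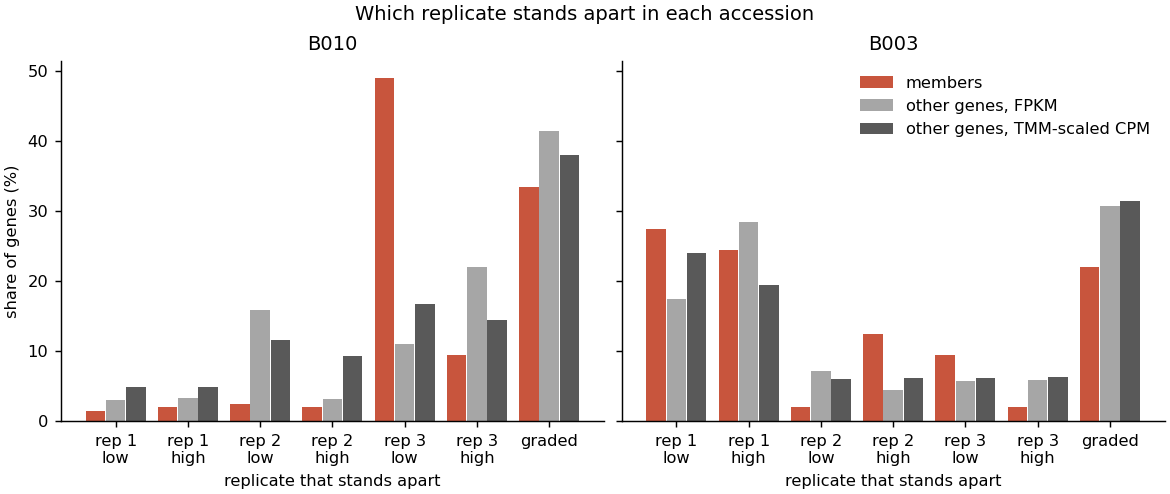
Share of genes (percent) in which each replicate stood apart as high or low, or in which the values were graded, for B010 (left) and B003 (right), with the members beside the other genes on the FPKM scale and on the CPM scale with TMM factors. In B010 the members pile up at a low replicate 3 (49.0%, against 11% and 16.8% of the other genes on these scales), while in B003 they are divided between a low replicate 1 (27.5%), a high replicate 1 (24.5%), graded values and a high replicate 2 (12.5%).

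B003 had no single leading pattern. Replicate 1 stood apart in 104 members, as low in 55 (27.5%) and as high in 49 (24.5%), while 44 (22.0%) were graded. Replicate 2 was the high one in 25 (12.5%) and replicate 3 the low one in 19 (9.5%), with 4 members each for a low replicate 2 and a high replicate 3. Among the other genes replicate 1 was low in 17.4% and high in 28.5%, replicate 2 was high in 4.49%, and replicate 3 was low in 5.83%. With TMM factors the members' counts were 55 and 48 for a low and a high replicate 1 and 23 for a high replicate 2, while 24.1% and 19.5% of the other genes had a low and a high replicate 1. A high replicate 2 was thus found in a larger share of the members than of the other genes on both scales. It was as common, at 12.5%, among the 833 genes variable in B010 alone, of which 10.6% had a low B003 replicate 3.

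Genes variable in only one accession showed the library that stood apart in that accession. Of the 833 genes variable in B010 alone, 446 (53.5%) had a low replicate 3. Of the 914 variable in B003 alone, 452 (49.5%) had a low replicate 1 and 242 (26.5%) a high one, and in B010 only 88 of these (9.63%) had a low replicate 3.

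The commonest joint pattern was graded values in B010 with a high B003 replicate 1, in 29 members (14.5%, against 12.2% of all genes the rule could have taken). Graded values in B010 with a low B003 replicate 1 were found in 20 members (10%, against 7.35%) and graded values in both accessions in 16 (8.0%, against 12.4%). The members' shares lay further above those of all genes where B010 replicate 3 was low. That pattern was itself commoner among the members (49.0%, against 11% of the other genes), which raises every joint share that includes it. A low B010 replicate 3 came with a low B003 replicate 1 in 24 members (12.0%, against 1.43%) and with graded B003 values in 23 (11.5%, against 3.86%). It came with a high B003 replicate 2 in 22 members (11%, against 1.11%) and with a low B003 replicate 3 in 16 (8.0%, against 1.38%). A further 11 members (5.5%, against 2.76%) combined it with a high B003 replicate 1. These joint shares were computed on the FPKM scale only, and the share of other genes with a low B010 replicate 3 moved with the scaling, as given above.

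A low B010 replicate 3 was not spread evenly over the B003 patterns. It was present in 22 of the 25 members with a high B003 replicate 2 (88.0%) and in 16 of the 19 with a low B003 replicate 3 (84.2%). The 22 include the chromosome 2 runs of 4 and of 3 neighbouring members given below, whose genes varied in parallel. A low B010 replicate 3 was present in 24 of the 55 members with a low B003 replicate 1 (43.6%) and in 11 of the 49 with a high one (22.4%). Its share over all members was 49.0%. Among the 44 members with graded B003 values it was present in 23 (52.3%, against 12.3% of the other genes). In the other genes the shares were lower, but those for a high B003 replicate 2 and a low B003 replicate 3 (22.4% and 22.6%) again exceeded those for a low and a high B003 replicate 1 (7.6% and 9.58%). The opposite B010 pattern, a high replicate 3, came with a low B003 replicate 1 in 9 of the 19 members that had it. These were 4.5% of the members, against 4.57% of all genes the rule could have taken. B010 replicate 3 was the highest B010 library in 43.6% of the members with a low B003 replicate 1, against 25.5% of all members. In the other genes these shares were 71.3% and 64.9% on the FPKM scale. With TMM factors B010 replicate 3 was the highest in 40.8% of the other genes. The shares within B003 patterns were computed on the FPKM scale only.

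**Figure D3:**
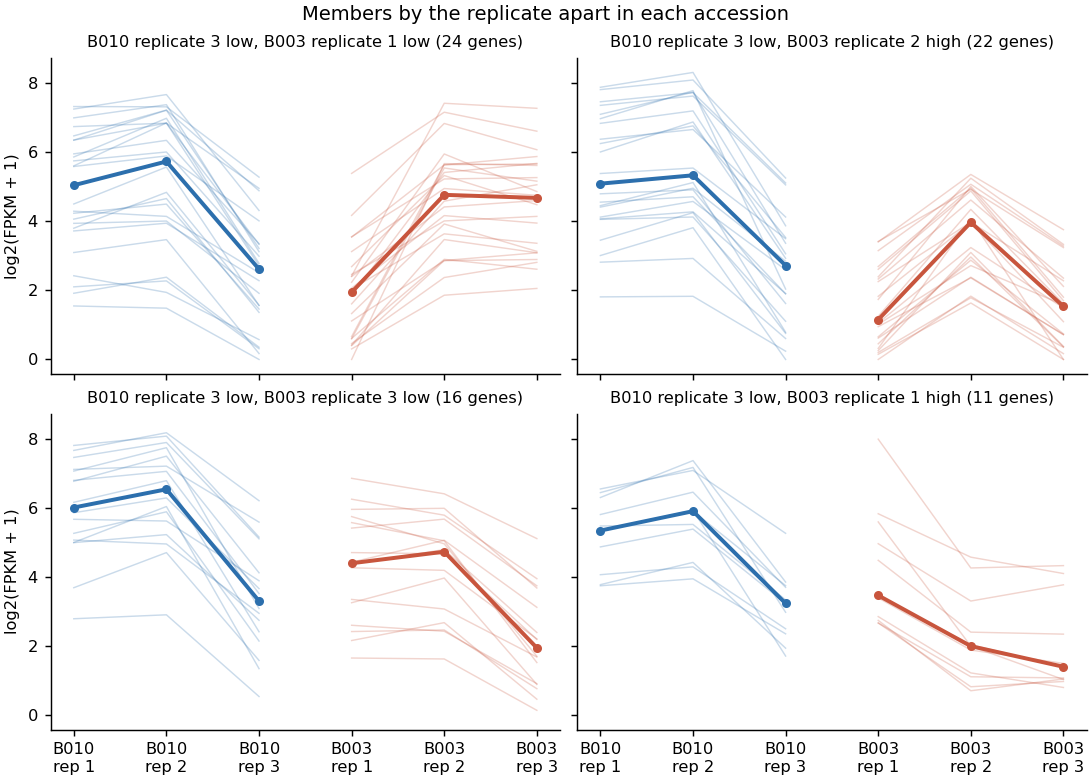
Level, as log2(FPKM + 1), of the members in the 4 commonest joint patterns without graded values in either accession, across the B010 and B003 replicates, where each thin line joins the values of 1 gene and the thick line is the median. In each of these sets B010 replicate 3 is the lowest B010 library, at medians that correspond to 5.14 to 9.01 FPKM, and the sets part in B003.

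Among the 24 members low in B010 replicate 3 and in B003 replicate 1, the median was 34.4, 52.6 and 5.14 FPKM in B010 replicates 1, 2 and 3 and 2.86, 26.5 and 24.7 FPKM in B003 replicates 1, 2 and 3. B010 replicate 3 lay below the mean of the other B010 replicates by a median of 2.78 on the log2(FPKM + 1) scale, and B003 replicate 1 below the other B003 replicates by a median of 2.21. Capann_59Chr11g005510 and Capann_59Chr05g008120, given above, were the most variable of these genes.

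The 22 members with a low B010 replicate 3 and a high B003 replicate 2 had medians of 33.8, 39.8 and 5.62 FPKM in B010 and of 1.23, 14.7 and 1.90 FPKM in B003. Capann_59Chr11g005690 had 63.5, 117 and 6.62 FPKM in B010, against 0.248, 15.9 and 0 FPKM in B003. Capann_59Chr02g019730 had 26.8, 29.2 and 2.08 FPKM in B010, against 2.34, 31.2 and 3.34 FPKM in B003. In Capann_59Chr02g019730 the 3 high libraries, 2 of B010 and 1 of B003, were at one level and the 3 low ones at another, and the ranges of the accessions overlapped. In Capann_59Chr11g005690 the high library of B003 stayed below B010 replicates 1 and 2.

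The 16 members with a low replicate 3 in both accessions had the highest B010 medians of the 4 sets, with values of 64.1, 93.7 and 9.01 FPKM in B010, against 20.1, 25.7 and 2.92 FPKM in B003. Capann_59Chr11g029840 had 31.1, 65.0 and 1.55 FPKM in B010, against 8.57, 14.7 and 0.855 FPKM in B003. Capann_59Chr06g022250 had 31.0, 36.6 and 5.72 FPKM in B010, against 53.0, 30.2 and 2.26 FPKM in B003. Replicates 3 share a number in the labels, but nothing in the labels says that the plants of a number were grown or processed together.

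The 11 members with a low B010 replicate 3 and a high B003 replicate 1 had medians of 39.7, 59.1 and 8.43 FPKM in B010, against 10.1, 3.00 and 1.65 FPKM in B003. Besides Capann_59Chr02g028530, Capann_59Chr03g042070 had 78.1, 165 and 13.5 FPKM in B010, against 47.5, 3.00 and 1.05 FPKM in B003. The 2 lowest B003 libraries of Capann_59Chr03g042070 lay below every B010 library, whereas B003 replicate 1 lay among the B010 values.

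Summed over all members, the level followed the low replicate of B010. The members took 1.27%, 1.87% and 0.398% of the counts of B010 replicates 1, 2 and 3, and 0.567%, 0.828% and 0.684% of those of B003 replicates 1, 2 and 3. Their median level was 17.4, 24.4 and 7.34 FPKM in B010, against 7.72, 11.9 and 7.15 FPKM in B003. The shares of the 3 B003 libraries lay inside the range of the B010 libraries, between replicates 3 and 1. B010 replicate 3 was lower than the mean of the other B010 replicates by at least 1 on the log2(FPKM + 1) scale in 143 members and higher by at least 1 in 50.

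**Figure D4:**
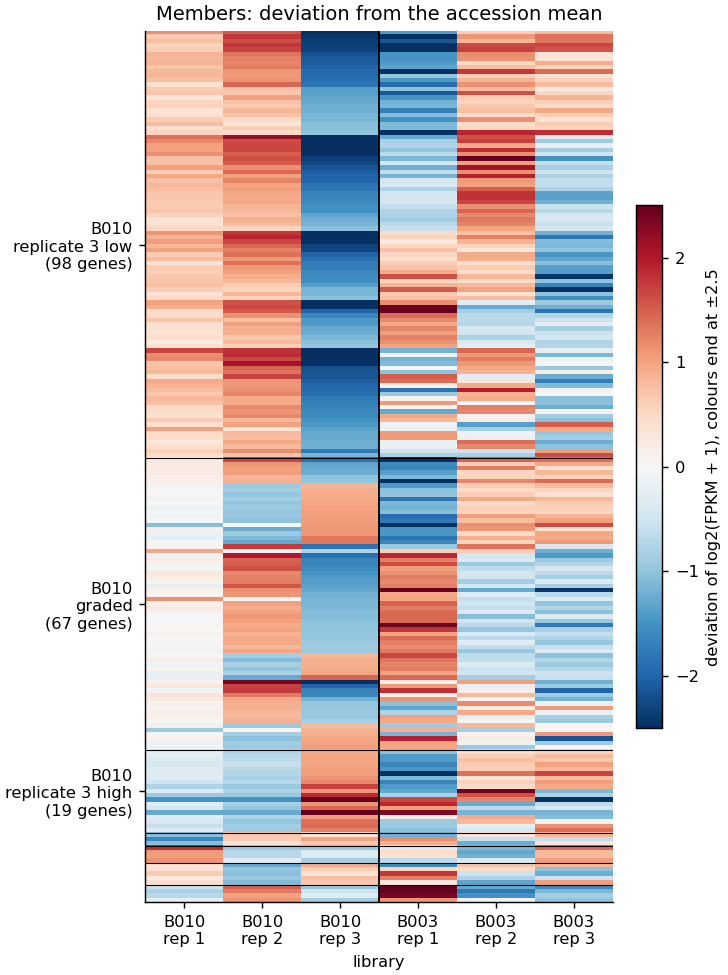
Deviation of each member's log2(FPKM + 1) from its mean within the accession, in the B010 libraries (left) and the B003 libraries (right), with 1 row per member, ordered by joint pattern. B010 replicate 3 is lower than the other B010 libraries in most rows, and the B003 libraries change sign from one group of rows to the next.

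Most of the variation lay on 2 axes, each carried mainly by the libraries of one accession. A singular value decomposition of the members' deviations from their accession means put 52.6% of the variation on a first axis that opposed B010 replicate 3 (loading 0.76) to B010 replicate 2 (-0.52) and replicate 1 (-0.24), with loadings of 0.05, -0.23 and 0.19 for B003 replicates 1, 2 and 3. A second axis with 36.1% opposed B003 replicate 1 (0.81) to B003 replicates 2 (-0.36) and 3 (-0.45), with loadings from -0.05 to 0.07 in B010. The next axis, with 8.42%, separated B003 replicates 2 and 3 (0.69 and -0.66). The other genes had 45.7% and 41.8% on their first 2 axes. Unlike the members' first axis, the first axis of the other genes also had a loading of -0.38 for B003 replicate 1.

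The libraries of different accessions were only weakly linked over the 200 members. The correlation of the deviations across members was 0.29 between B010 replicate 1 and B003 replicate 2, -0.27 between B010 replicate 2 and B003 replicate 3, -0.25 between B010 replicate 3 and B003 replicate 2, and 0.22 between B010 replicate 3 and B003 replicate 3. These are descriptions over genes, which share their libraries, and the 3 deviations of a gene in an accession add up to 0. The strongest of them did not join libraries of the same number. In the other genes the strongest, 0.18, joined replicate 3 of both accessions. On the CPM scale with TMM factors the members' value for that pair was 0.29. On that scale it was 0.31 between B010 replicate 1 and B003 replicate 2, and -0.32 between B010 replicate 2 and B003 replicate 3.

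Some members were switched between 0 and many counts among replicates. A count of 0 in at least 1 library was found in 11 members, and 7 had such a count in both accessions. Besides Capann_59Chr04g019840 these were singled out here for their zeros, after their values were seen. Capann_59Chr02g002780 had 0, 0 and 162 counts in B010 and 158, 0 and 0 counts in B003, so that it was read in 1 library of each accession. Capann_59Chr10g012600 likewise had 0, 0 and 72 counts in B010 and 0, 55 and 0 counts in B003.

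Others were missing from fewer libraries. Capann_59Chr03g049730 had 49, 0 and 41 counts in B010 and 48, 40 and 0 counts in B003. Capann_59Chr03g038210 had 37, 22 and 0 counts in B010 and 0, 645 and 609 counts in B003. The libraries in which these genes were at 0 were not the same from gene to gene.

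A further pair of genes joined a zero in B010 replicate 3 to one in B003. Capann_59Chr01g050840 had 221, 553 and 0 counts in B010 and 0, 203 and 22 counts in B003. Capann_59Chr02g030430 had 331, 394 and 0 counts in B010 and 5, 68 and 0 counts in B003. The counting program, its use of strand and its handling of reads that fit several places are not given in the sources used here, so values of genes with near-identical copies or overlapping neighbours are uncertain, and whether such sharing touched these genes was not tested.

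Members lay next to one another more often than the other genes lay next to a member. Positions were taken from the order of the cv.59 identifiers along each chromosome, since the files give no coordinates, and a step is from one listed cv.59 gene to the next. An adjacent identifier was also a member for 27 of the 200 (13.5%), against 1.67% of the other genes. Within 5 identifier steps it was 57 (28.5%), against 7.89%. These 57 formed 25 runs, the longest of 4 genes. The members were found on all chromosomes, from 9 on chromosome 6 (0.526% of the genes there that the rule could have taken) to 33 on chromosome 3 (1.35%), with 31 on chromosome 2 (1.47%).

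Neighbours often had the same order of replicates. Of the 15 adjacent pairs of members, 10 (66.7%) had the same order in B010 and in B003, and of the 37 pairs within 5 steps 17 did (45.9%). The 10 include all adjacent pairs from Capann_59Chr02g019690 to Capann_59Chr02g019750 and from Capann_59Chr02g034900 to Capann_59Chr02g034940. They also include Capann_59Chr05g026620 and Capann_59Chr05g026670, whose FPKM were close in every library. Whether shared reads gave any of these orders was not tested. Over all 19900 pairs of members the share was 11.3%. All members of a run shared the order in 9 of the 25 runs.

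The longest runs had 4 genes. In the one on chromosome 2 all 4 genes had a low B010 replicate 3 and a high B003 replicate 2. Capann_59Chr02g019690 had 6.05, 6.61 and 0.523 FPKM in B010, against 0.577, 6.34 and 0.670 FPKM in B003. Capann_59Chr02g019710 had 2.51, 2.56 and 0.181 FPKM in B010, against 0.151, 2.45 and 0.278 FPKM in B003. Capann_59Chr02g019750 had 15.7, 16.5 and 1.15 FPKM in B010, against 1.37, 19.4 and 2.07 FPKM in B003. With Capann_59Chr02g019730, given above, the 4 genes differed in level and shared the profile over all 6 libraries.

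The other run of 4 genes, on chromosome 11, did not share an order. Of its genes, Capann_59Chr11g029800 had 12.4, 5.20 and 23.3 FPKM in B010, against 19.6, 5.37 and 0.221 FPKM in B003. Its neighbours Capann_59Chr11g029840, given above, Capann_59Chr11g029920 and Capann_59Chr11g029960 had a low B010 replicate 3, and Capann_59Chr11g029800 had its highest B010 value there.

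A run of 3 genes on chromosome 2 held Capann_59Chr02g034900, Capann_59Chr02g034920 and Capann_59Chr02g034940. Capann_59Chr02g034900 had 176, 211 and 33.6 FPKM in B010, against 5.46, 30.1 and 2.49 FPKM in B003. Capann_59Chr02g034920 had 82.3, 100.3 and 16.5 FPKM in B010, against 2.55, 14.6 and 1.14 FPKM in B003. Capann_59Chr02g034940 had 163, 197 and 32.3 FPKM in B010, against 5.12, 28.5 and 2.26 FPKM in B003. The values of the last gene were close to those of the first in every library, and reads shared between near-identical neighbours could not be told apart from separate transcripts that vary together.

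**Figure D5:**
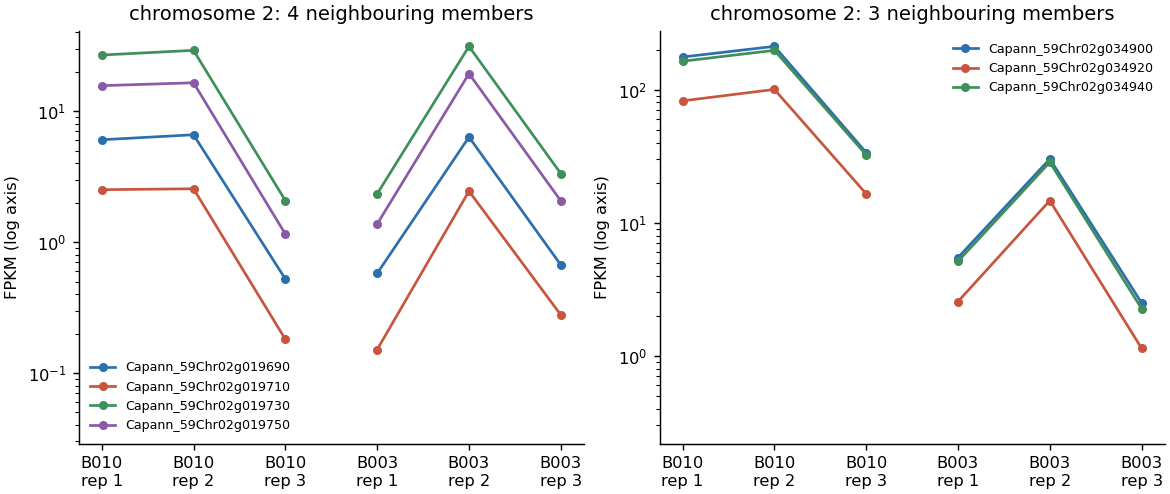
FPKM (log axis) in the 3 B010 and then the 3 B003 replicates, for a run of 4 neighbouring members (left panel) and a run of 3 (right panel) on chromosome 2, with lines joining the values of 1 gene in an accession. The 4 genes from Capann_59Chr02g019690 to Capann_59Chr02g019750 run in parallel over all 6 libraries at different levels, as do the 3 from Capann_59Chr02g034900 to Capann_59Chr02g034940.

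The accession comparison, B010 over B003, was fitted with edgeR's quasi-likelihood test over all genes, with adjustment by the Benjamini-Hochberg method. A gene was called where its adjusted p did not exceed 0.05 and its log2 fold change was 1 or more in size. The spread that chose the members is also the error of this test, so nothing is read from their count of calls. Of the 198 members that passed the filter on low counts, 36 were called, 22 of them with B010 above B003 and 14 with B010 below B003. Over all 24738 genes tested 25.3% were called, 12.5% with B010 above and 12.8% with B010 below. An unadjusted p under 0.05 was found for 68 members, against 50.4% of all genes. Capann_59Chr02g002780 and Capann_59Chr10g012600 were not tested.

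The members' fold changes were wide while most of their ranges overlapped. The large spread within both accessions that chose them favours both, so neither is read as a result about the members. The median size of the log2 fold change was 1.75, against 0.57 over all genes tested, and 136 members reached at least 1. The median with its sign was 0.65, against 0.01 over all genes. The ranges of B010 and B003 did not overlap in 45 members, of which 29 had all of B010 above B003 and 16 had all of B010 below B003, against 49.8% of all genes tested. In the other 155 the ranges overlapped. The spread that chose the members is the error of the accession test, so nothing is read from how their calls moved when a library was left out. The members' count of calls did change with the library left out. It was 69 without B010 replicate 3 and 48 without B003 replicate 1, the libraries that stood apart. It was 5 without B010 replicate 1, 9 without B010 replicate 2, 15 without B003 replicate 2 and 8 without B003 replicate 3. Over all genes the count, 6260, moved in the same directions, to 6967 and 6815 without the libraries that stood apart. Without the others it was 3615, 4560, 4294 and 4117, in the order given for the members.

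Among the called members, the smallest p-values belonged to genes whose accessions lay further apart than their wide replicates. Capann_59Chr04g006350 had 203, 289 and 73.2 FPKM in B010, against 9.23, 7.43 and 2.22 FPKM in B003, with means of 188 ± 109 FPKM over the B010 libraries and 6.29 ± 3.64 FPKM over the B003 libraries (SD, n = 3 each). Its log2 fold change was 4.96 (SE 0.82, edgeR adjusted p = 0.00729). Replicate 3 was the lowest of its accession on both sides, and every B010 library was above every B003 library.

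Capann_59Chr08g031600 had 93.0, 135 and 37.5 FPKM in B010, against 9.54, 2.70 and 1.83 FPKM in B003. Its log2 fold change was 4.33 (SE 0.85, edgeR adjusted p = 0.0124), and the adjusted p was 0.0513 without B003 replicate 2. The accessions did not overlap, with replicate 3 again the lowest in each.

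In the other direction, Capann_59Chr01g042830 had 4.14, 0.691 and 6.75 FPKM in B010, against 38.5, 187 and 206 FPKM in B003. It was lower in B010 by a log2 fold change of -5.30 (SE 0.94, edgeR adjusted p = 0.00922), with B010 replicate 2 and B003 replicate 1 low. Its B010 counts were 28, 3 and 29, so the low B010 replicate 2 rests on few counts. The SD expected from counting alone was 0.27 for this gene in B010, the highest among the members. Capann_59Chr07g008100 had 1.55, 5.46 and 0.648 FPKM in B010, against 111, 48.5 and 25.1 FPKM in B003. Its log2 fold change was -4.49 (SE 0.99, edgeR adjusted p = 0.0176), and the adjusted p was 0.0758 without B010 replicate 1. In both genes the accessions did not overlap.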

How the data were processed

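Polyadenylated RNA of the first branch was sequenced in 3 pools of plants of B010 and 3 of B003. The authors aligned the filtered reads to the cv.59 genome. Their processing notes name HISAT2 and StringTie, while the counting program and the use of strand are not given in the sources used here. The deposited counts are unnormalized reads per gene, and the deposited FPKM values are these counts divided, by the authors, by exon length and mapped reads. The deposited table also holds the authors' own log2 fold changes and p-values of the accession comparison, which were not used. Every row names a gene or locus.

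The members, lists and tests were chosen with earlier results of these data known. SDs, gaps and the decomposition were computed on log2(FPKM + 1), so differences of low genes are understated. The counts were fitted with edgeR 4.0.16 in R 4.3.3 with its low-count filter, which kept 24738 genes, TMM factors and the accession as the only term, with Benjamini-Hochberg adjustment over all genes kept. TMM factors were 0.923 to 1.12. The SE of a log2 fold change was obtained from the fold change and the test's F statistic. Alternatives used DESeq2 1.42.0, limma 3.58.1, other scalings, filters, pseudocounts, gap limits and list sizes, the replicate number as a block, and each library left out in turn. The scripts were tested on simulated data.

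Genes named are the 4 members with the highest smaller SD, the 2 highest in each of the 4 commonest joint patterns without graded values, the 2 called members with the smallest p in each direction, and the 2 genes on either side of the list's limit. Genes with zeros and in runs were added after their values were seen. Each replicate is a pool of plants, so the p-values measure the spread between pools. Library totals were 29891192 to 47659515 counts, and intervals from counts cover counting error only.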

Additional observations from a re-analysis of the deposited data

How the results depend on the processing

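The share of variation on the first axis of the deviations was 52.6% for the members. It was 49.7% to 57.8% with the lists chosen under the other pseudocount, unit, filters, spread measure and list sizes. The loadings of those axes were not compared, so a similar share does not show that the axis was the same. Which genes belonged to the list depended more on the measure: of the 200 members, 122 were kept with log2(FPKM + 0.1) and 68 with the coefficient of variation of FPKM. On the log2(CPM + 1) scale with TMM factors 153 were kept. A mean of 5 to 100 FPKM kept 176, and a mean of at least 1 FPKM with no upper limit kept 154. When a library was left out, 76 to 158 were kept (76 without B010 replicate 3, 86 without B003 replicate 1). A list of the 100 highest holds only members by construction. B010 replicate 3 stood apart as low in 49.0% of members, against 36.5% with the coefficient of variation, 62.0% and 39.8% of the 100 and 400 highest, and 65.0% and 40.0% with gap limits of 1 and 3. B003 replicate 1 stood apart in 52.0%, against 62.0% and 42.5% with these gap limits. The joint pattern of a low B010 replicate 3 and a low B003 replicate 1 covered 12.0%, against 4.5% with the coefficient of variation and 17.5% and 6.5% with these gap limits. Members with an adjacent member were 27, against 57 within 5 steps, a window that includes the adjacent genes.

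The count of genes called between the accessions, 6260, was 9598 with no fold limit, 3229 with a log2 limit of 2 and 3615 to 6967 with a library left out (3615 without B010 replicate 1, 4117 without B003 replicate 3). The count of members called, 36, was 76 with DESeq2 and 5 to 69 with a library left out. The cause of these changes was not tested. Among the genes chosen by the naming rule, the log2 fold changes of the 4 called ones kept their sign under the alternatives run, and 6 that were not called changed sign. With a library left out, the range was -0.064 to 1.59 for Capann_59Chr11g005510 (1.04 with all libraries), -0.38 to 1.34 for Capann_59Chr05g008120 (0.80) and -0.58 to 1.66 for Capann_59Chr08g007380 (0.91), each of them below 0 only without B010 replicate 2. It was -1.004 to 2.102 for Capann_59Chr02g028530 (-0.15), -0.77 to 0.47 for Capann_59Chr05g020130 (-0.18) and -0.68 to 0.58 for Capann_59Chr06g022250 (-0.13), each of them above 0 without B010 replicate 3 and highest without B003 replicate 1. Capann_59Chr02g028530 had 0.004 in both limma fits on log2(FPKM + 1), and Capann_59Chr06g022250 had 0.25 with the replicate block and 0.18 and 0.27 in the limma fits with pseudocounts of 1 and 0.1. Deviations of libraries with the same replicate number correlated weakly across all genes tested, at 0.01, 0.12 and 0.23 for numbers 1, 2 and 3. B010 replicates 2 and 3 each correlated best with the B003 library of their own number. B010 replicate 1 correlated best with B003 replicate 2 (0.125). Whether the numbers pair the libraries is not settled by these values. With the replicate number as a block, 5458 genes and 45 members were called. Its adjusted p was 0.0462 for Capann_59Chr11g005690 and 0.0333 for Capann_59Chr11g029840, which were not called without the block, and it changed no other call among the genes chosen by the naming rule. Depth limits the members with 3 or fewer counts in some library, of which there were 16.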
